A study of Mus musculus with 72 samples.

Results

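The genes described here are 31 genes of mitochondrial fatty acid oxidation and ketone body formation, listed by name and ordered by step of the pathway. Of the 31, 28 were measured by a probe set that carried 1 gene symbol, among 19938 genes measured in this way. For a gene with several such probe sets, the brightest on average over all 72 arrays stood for the gene. Cpt1b, the muscle form of carnitine palmitoyltransferase, lay only on a probe set shared with another symbol and was left out. Acsl1, an acyl-CoA synthetase, and Ucp2, an uncoupling protein, were not analysed here. No filter on low values was used, so all 28 genes were tested.

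RNA was taken from livers of wild-type males of the inbred strains 129P2/OlaHsd (129), C57BL/6J (B6J), C57BL/6NTac (B6N) and C3HeB/FeJ (C3H). All mice were housed singly and were sampled random-fed. The HFD groups received a high-fat diet for 21 days and were 17 weeks old. Controls were 17 weeks old in 129 and 15 to 17 weeks old in the other strains, so age went partly with diet in B6J, B6N and C3H. Per the labels' protocols the controls ate a low-fat diet for up to 21 days, while their treatment label reads none. There were 8 controls in each of 129, B6J and B6N and 18 in C3H, and 7 HFD mice in each of 129 and B6J and 8 in each of B6N and C3H, with 1 array per mouse. As background, C57BL/6J carries a deletion in Nnt, a mitochondrial transhydrogenase gene that is intact in C57BL/6N mice.

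Fatty acids that enter a liver cell are bound to coenzyme A, passed into the mitochondrion as carnitine esters, and shortened by rounds of dehydrogenation, hydration, a further dehydrogenation and thiolysis. Unsaturated fatty acids need additional isomerases and a reductase before they can pass through these rounds. The liver turns much of the resulting acetyl-CoA into acetoacetate and beta-hydroxybutyrate, the ketone bodies that other organs burn, and the nuclear receptor PPARα activates many genes of the pathway.

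Each value is the log2 signal of a probe set. Array medians fell into 3 ranges by strain, for 129, the B6 strains and C3H in turn (6.46 to 6.65, 4.51 to 4.67 and 3.10 to 3.28), so levels are set side by side only within such a set. The 9 measured hepatocyte markers had mean log2 values between 7.13 and 8.89 above the array median in every group, as the tissue label says. The mean of the 7 lymphocyte markers and that of the 6 adipocyte markers lay below the array median in every group. In a bulk liver sample, fewer cells of a type and less RNA per cell cannot be told apart. In 129, control replicate 6 stood apart: it was the lowest of the 8 controls for 20 of the 28 genes, and the mean of the 28 was 0.40 log2 units below the control mean there, against 0.01 to 0.09 above it in the other 7 controls. The 31 B6 arrays split into 2 parts along the main axis of their residual variation, each with control and HFD arrays of both strains. Calls in 129 that changed without control replicate 6 are given both ways, and B6 counts are also given within each part. Most other 129 differences are given with replicate 6 only.

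On HFD, genes of this pathway were higher in all 4 strains, most often in B6N and C3H, and none was called lower in any. In this text a gene is called, and is said to have risen, at a Benjamini-Hochberg adjusted p under 0.05 over all 19938 genes, from a limma fit with 1 mean for each group. In B6N 16 of the 28 rose, against 0.637% of all genes tested there. In C3H 11 rose, against 0.517% of all genes, and 10 of these 11 were among the 16 of B6N. In 129 3 rose (0.441% of all genes) and in B6J 1 (0.13% of all genes). The median difference over the 28 genes was 0.42 in B6N, 0.31 in C3H, 0.20 in 129 and 0.18 in B6J on the log2 scale, beside medians between -0.00263 and 0.00913 over all genes. Differences lay above 0 for all 28 genes in B6N, 27 in C3H, 24 in 129 and 24 in B6J. For 22 of the 28, they lay above 0 in all 4 strains, as they did for 10.6% of all genes.

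**Figure D1:**
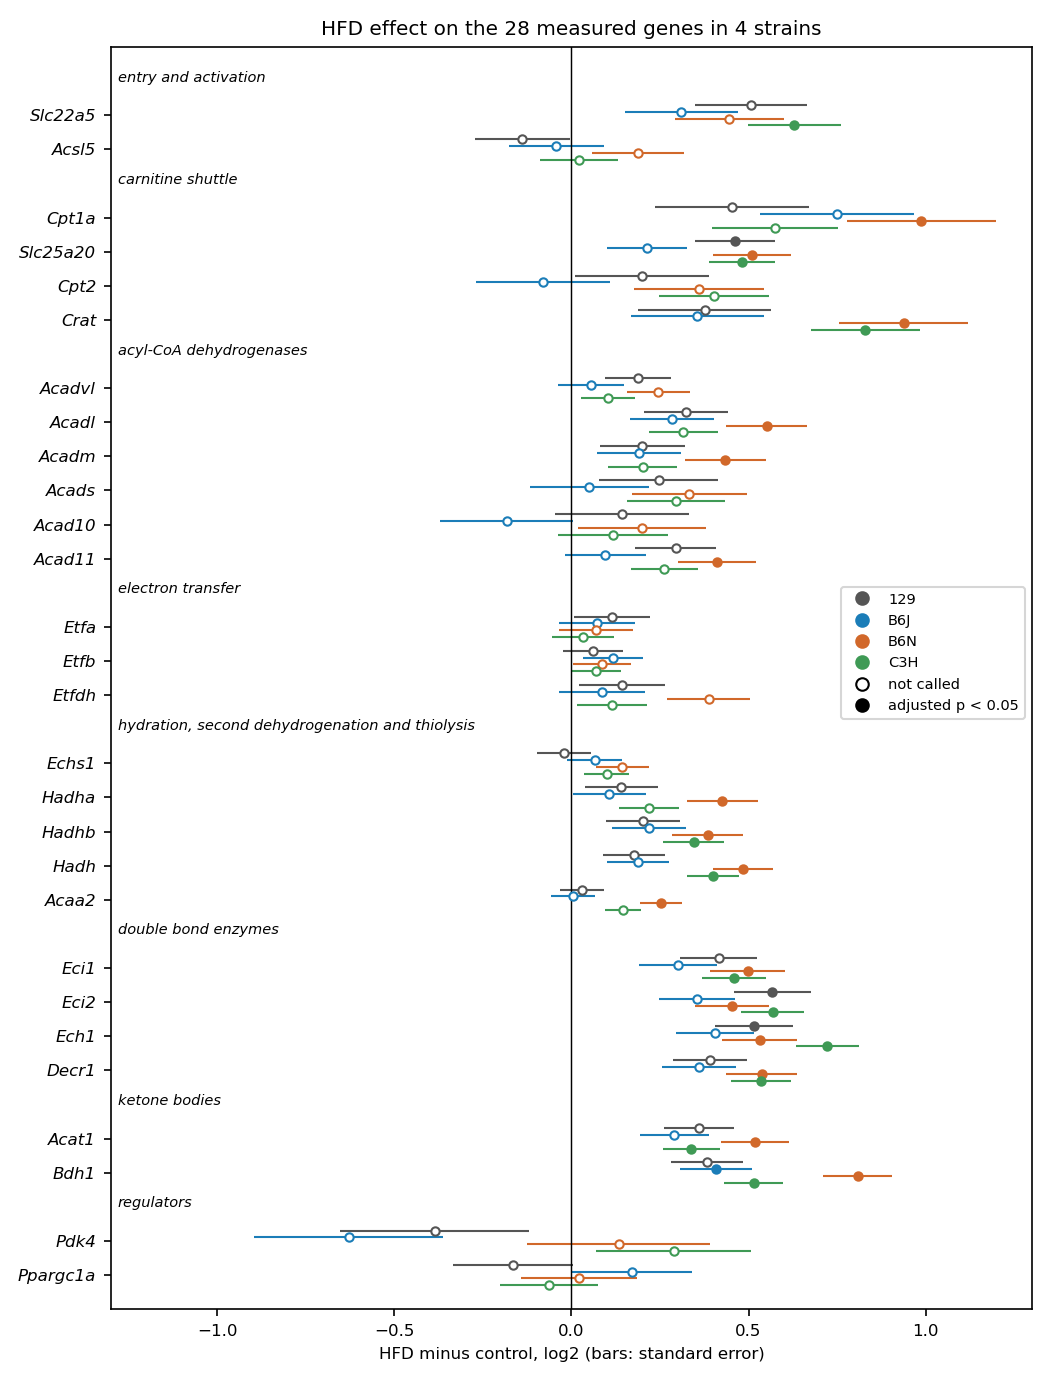
HFD minus control on the log2 scale (horizontal axis) for the 28 measured genes, grouped by step of the pathway, in 129, B6J, B6N and C3H. Points are limma estimates, bars are standard errors, and filled points have an adjusted p under 0.05, which holds for 16 genes in B6N, 11 in C3H, 3 in 129 and 1 in B6J. The double bond enzymes and ketone body enzymes lie to the right of 0 in every strain, and Etfa and Etfb lie close to 0.

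Each step of the pathway but electron transfer and the regulators held at least 1 of the 17 genes called in any strain. All 4 enzymes of double bonds and both ketone body enzymes were called in at least 2 strains each, as were 2 of the 4 genes of the carnitine shuttle. None of the 3 electron transfer genes was called in any strain. Slc25a20, Eci2, Ech1 and Bdh1 were each called in 3 strains, 6 genes in 2 and 7 in 1. The other 11 genes were called in none: Acsl5, Cpt2, Acadvl, Acads, Acad10, Etfa, Etfb, Etfdh, Echs1, Pdk4 and Ppargc1a.

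Entry into the cell and activation were represented by 2 measured genes that differed in their values. Slc22a5 encodes the carnitine transporter of the plasma membrane. In C3H its log2 value spanned 3.42 to 4.50 in controls (median 3.88, n = 18) and 3.99 to 5.28 on HFD (median 4.57, n = 8). Of the 8 HFD livers, 5 lay above every control, and the groups overlapped in the rest. Slc22a5 rose 1.55-fold in C3H (95% interval 1.29 to 1.85; adjusted p = 0.0021), the only strain in which it was called. On the log2 scale this was 0.63 ± 0.13 (SE), with more controls than in the other strains. The C3H control median lay 0.72 log2 units above the array median, against 1.37 to 1.64 in the other strains. In 129, B6J and B6N the differences were 0.51 ± 0.16, 0.31 ± 0.16 and 0.45 ± 0.15 (log2 ± SE; adjusted p = 0.175, 0.875 and 0.281). Acsl5, an acyl-CoA synthetase, was called in no strain, with differences of -0.14 ± 0.13 (129), -0.04 ± 0.13 (B6J), 0.19 ± 0.13 (B6N) and 0.02 ± 0.11 (C3H).

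In the carnitine shuttle, which carries acyl groups across the mitochondrial membranes, Slc25a20 rose in 3 strains, Crat in 2 and Cpt1a in 1. Cpt1a, the outer membrane enzyme that controls the rate of entry, had the highest estimated difference of the 28 genes in B6N and in B6J. In B6N its log2 value spanned 8.65 to 9.90 in controls (median 9.29, n = 8) and 9.71 to 10.72 on HFD (median 10.35, n = 8). In B6J it spanned 9.32 to 9.87 in controls (median 9.57, n = 8) and 9.93 to 10.70 on HFD (median 10.20, n = 7). The groups overlapped in B6N, where 7 of 8 HFD livers lay above every control, and did not overlap in B6J. Cpt1a rose 1.98-fold in B6N (1.49 to 2.65; adjusted p = 0.00254). In B6J, the difference of 0.75 ± 0.22 did not pass (adjusted p = 0.165), and neither did those of 0.45 ± 0.22 in 129 and 0.58 ± 0.18 in C3H (0.851 and 0.133). Its SD over the controls was 0.51, 0.19, 0.41 and 0.55 in 129, B6J, B6N and C3H, which ranked 3, 9, 2 and 1 among the 28 genes, counted from the highest.

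Slc25a20, the inner membrane carrier that exchanges acylcarnitine for free carnitine, was called in 129, B6N and C3H. Its log2 value in 129 spanned 9.63 to 10.53 in controls (median 10.34) and 10.25 to 11.08 on HFD (median 10.77). The values in B6N were 9.64 to 10.08 in controls (median 9.78) and 10.23 to 10.54 on HFD (median 10.31). In C3H they were 7.50 to 8.54 in controls (median 8.03) and 8.12 to 8.91 on HFD (median 8.51). All 8 HFD livers of B6N lay above every control, while the groups overlapped in 129 (5 of 7 above) and C3H (2 of 8 above). The rise was 1.38-fold in 129 (1.18 to 1.61; adjusted p = 0.0245), 1.42-fold in B6N (1.22 to 1.66; 0.00304) and 1.40-fold in C3H (1.23 to 1.59; 0.000778). Without control replicate 6, in which Slc25a20 was at its lowest, the 129 difference was 0.37 ± 0.11 and was not called (adjusted p = 0.131; 0.000216 to 0.235 over all alternatives run). In B6J it was 0.21 ± 0.11 (adjusted p = 0.892).

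Crat, which moves acetyl groups between carnitine and coenzyme A, rose 1.92-fold in B6N (1.49 to 2.46; adjusted p = 0.000681) and 1.78-fold in C3H (1.44 to 2.20; 0.000401). Its log2 value in B6N spanned 7.44 to 8.33 in controls (median 7.93) and 8.16 to 9.24 on HFD (median 9.01). In C3H it spanned 5.69 to 7.36 in controls (median 6.68) and 6.89 to 7.91 on HFD (median 7.39). The groups overlapped in both strains, with 7 of 8 HFD livers above every control in B6N and 5 of 8 in C3H. In 129 and B6J the differences were 0.38 ± 0.19 and 0.36 ± 0.19 (adjusted p = 0.909 and 0.891). Cpt2, which returns the acyl group to coenzyme A inside the mitochondrion, was called in no strain, with differences of 0.20 ± 0.19, -0.08 ± 0.19, 0.36 ± 0.18 and 0.40 ± 0.16 in 129, B6J, B6N and C3H.

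**Figure D2:**
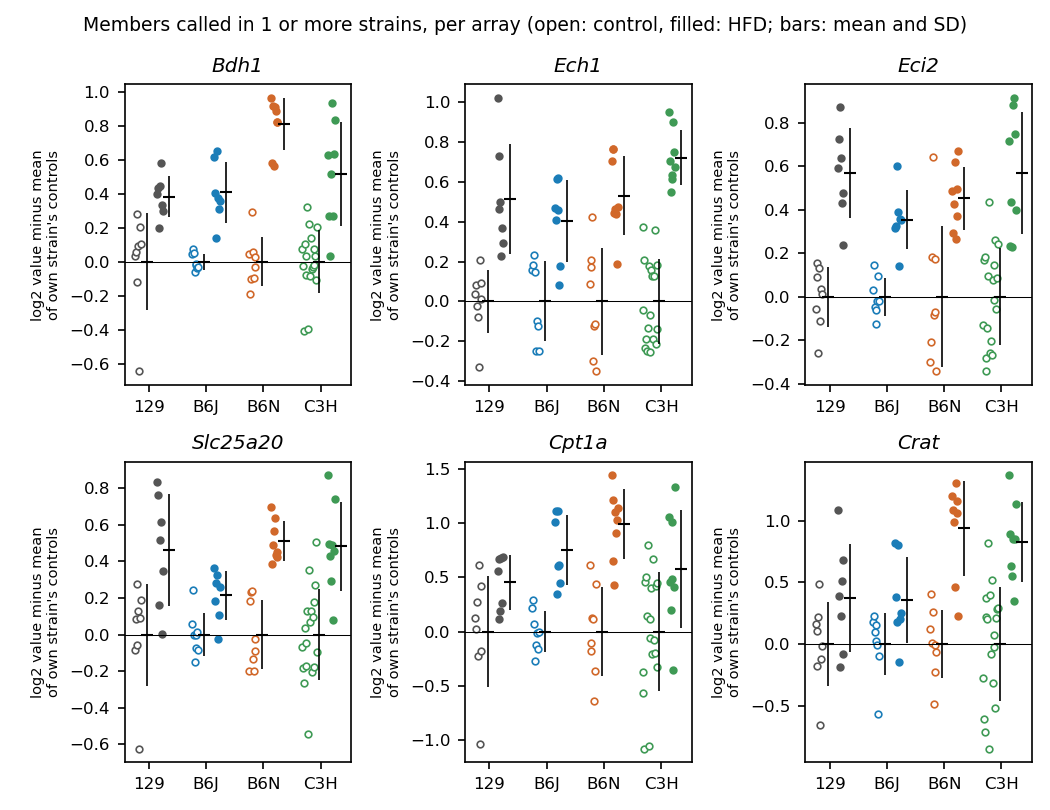
Log2 value of 6 called genes in each liver, minus the control mean of its own strain (vertical axis), for control (open) and HFD (filled) livers of 129, B6J, B6N and C3H. Horizontal marks and bars are the mean and SD of each group. For Bdh1 in B6N the HFD livers lie above every control, whereas for Cpt1a in C3H the groups overlap, and the lowest open point of Bdh1, Slc25a20 and Cpt1a in 129 is control replicate 6.

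Promoter sequence was examined for the element that PPARα binds, a direct repeat of the hexamer AGGTCA with 1 base between the copies. RefSeq windows of 300 bases, from 250 before to 50 after a transcription start (GRCm38.p6), were matched for 24 of the 28 genes, in 25 windows, since Bdh1 had 2. The exact hexamer, on either strand, was in 4 of the 25 windows (16%; Acadm, Acadvl, Cpt1a and Echs1) and in 16.3% of 32851 windows of all genes. The repeat with up to 2 mismatches over both copies, on either strand, was in 3 of the 25 (12%) and in 3.86% of all windows. Hexamer matches can lie inside the repeat, as in Echs1. The 3 windows with the repeat are shown because they set a gene called in 3 strains (Slc25a20) beside 2 called in none (Echs1 and Etfa). They are Slc25a20 at chr9:108661886-108662185 (plus strand), Echs1 at chr7:140116372-140116671 (minus strand) and Etfa at chr9:55512194-55512493 (minus strand), with the repeat in capitals:
Slc25a20: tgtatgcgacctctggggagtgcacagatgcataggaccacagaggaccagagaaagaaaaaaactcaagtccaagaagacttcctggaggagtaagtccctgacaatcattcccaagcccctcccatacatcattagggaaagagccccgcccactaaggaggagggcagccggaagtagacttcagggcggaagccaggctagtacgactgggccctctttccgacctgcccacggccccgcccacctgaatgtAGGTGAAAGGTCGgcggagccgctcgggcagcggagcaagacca
Echs1: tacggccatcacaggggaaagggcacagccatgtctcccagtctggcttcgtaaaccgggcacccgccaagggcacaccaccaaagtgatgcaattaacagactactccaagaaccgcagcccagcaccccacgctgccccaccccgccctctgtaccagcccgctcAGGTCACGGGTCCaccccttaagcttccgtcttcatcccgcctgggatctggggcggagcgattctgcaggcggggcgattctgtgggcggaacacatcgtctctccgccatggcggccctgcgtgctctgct
Etfa: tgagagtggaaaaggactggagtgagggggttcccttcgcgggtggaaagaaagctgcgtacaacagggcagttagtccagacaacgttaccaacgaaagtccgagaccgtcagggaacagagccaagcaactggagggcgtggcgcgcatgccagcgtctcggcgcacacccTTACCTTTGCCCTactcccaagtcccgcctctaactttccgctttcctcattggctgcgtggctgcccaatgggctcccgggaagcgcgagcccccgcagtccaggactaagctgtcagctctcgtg
The letters in capitals are matches to the repeat and not measured binding sites. In B6N, where Slc25a20 rose by 0.51 ± 0.11, the differences of Echs1 and Etfa were 0.14 ± 0.07 and 0.07 ± 0.10.

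The acyl-CoA dehydrogenases carry out the first oxidation of each round and differ in the chain lengths they accept. Acadl (long chains), Acadm (medium chains) and Acad11 (long chains) rose in B6N, and none of the 6 measured was called in another strain. Acadl in B6N spanned 9.12 to 9.68 in controls (median 9.47) and 9.66 to 10.29 on HFD (median 10.03), and Acadm spanned 10.75 to 11.18 (median 10.97) and 11.25 to 11.55 (median 11.39). Acadm did not overlap between the groups, and for Acadl 7 of 8 HFD livers lay above every control. Acadl rose 1.47-fold (1.25 to 1.72; adjusted p = 0.00221), Acadm 1.35-fold (1.15 to 1.58; 0.0385) and Acad11 1.33-fold (1.14 to 1.55; 0.0433). Over the 15 alternatives run, the call of Acadm was lost under 3 (each B6 part alone, and each array centred on its median), and that of Acad11 under these, with Dbp minus Arntl (clock genes) as a covariate and with trend and robust eBayes, with adjusted p-values up to 1.0 for both. Differences in the other strains for these 3 genes lay between 0.10 and 0.32. Acadvl (very long chains) and Acads (short chains) differed by 0.25 ± 0.09 and 0.33 ± 0.16 in B6N, without being called, and Acad10 by 0.20 ± 0.18. With leading component covariates, the main axis of each set's residuals from the same fit, Acads was called in B6N and C3H (adjusted p = 0.0479 and 0.027); such covariates take up residual variation by construction.

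Electrons from these dehydrogenases pass to the electron transfer flavoprotein, whose subunits Etfa and Etfb encode, and from it to its membrane oxidoreductase, encoded by Etfdh. No gene of the 3 was called, and their median differences were 0.11, 0.09, 0.09 and 0.07 in 129, B6J, B6N and C3H. The differences of Etfa and Etfb lay between 0.03 and 0.12 in all 4 strains, and the highest upper bound of their 95% intervals was 0.33. Etfdh was higher than these in B6N, at 0.39 ± 0.12 (adjusted p = 0.122), where 6 of 8 HFD livers lay above every control. Its log2 value there spanned 11.01 to 11.45 in controls (median 11.13) and 11.35 to 11.75 on HFD (median 11.61). Etfdh was called in B6N under 3 of 15 alternatives (array weights, leading component covariates and the strain fitted alone; adjusted p from 0.0143 to 1.0) and in the mean over the 4 strains under 5 of 15.

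**Figure D3:**
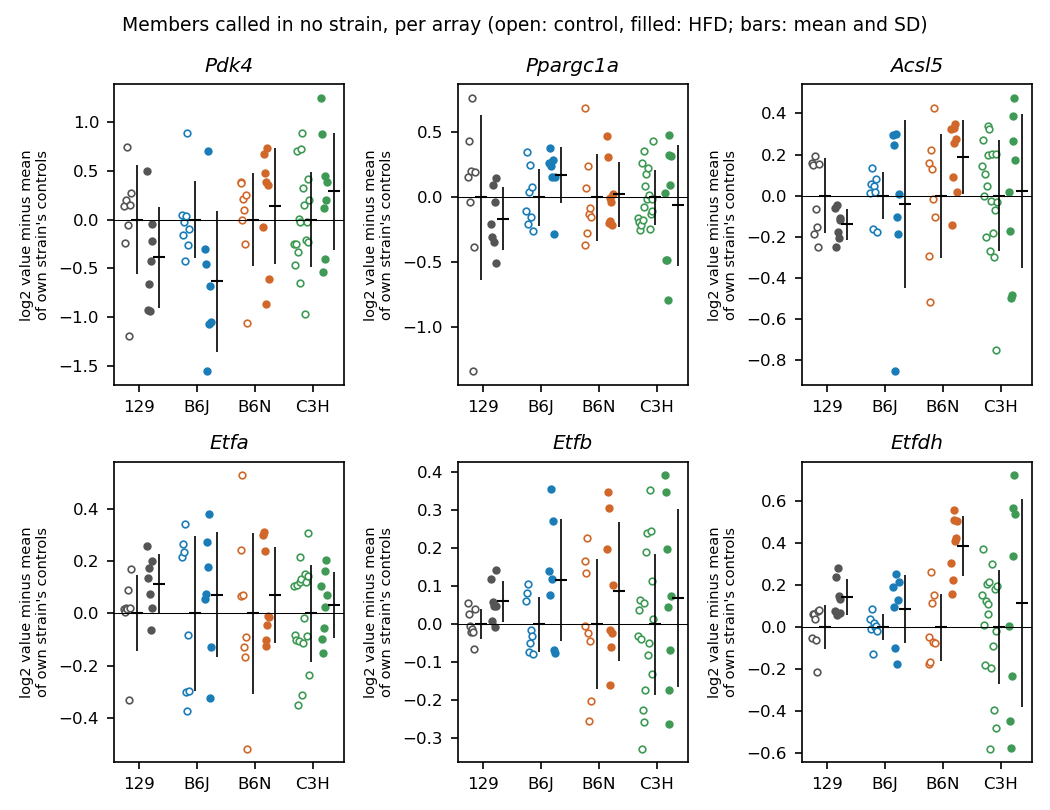
Log2 value of 6 genes called in no strain in each liver, minus the control mean of its own strain (vertical axis), for control (open) and HFD (filled) livers of 129, B6J, B6N and C3H. Horizontal marks and bars are the mean and SD of each group. Control and HFD livers overlap in every panel and strain, and the SDs of Pdk4 run from 0.39 to 0.72.

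Hydration, the further dehydrogenation and thiolysis close each round. In B6N Hadha, Hadhb, Hadh and Acaa2 rose, and in C3H Hadhb and Hadh rose. Hadh, the hydroxyacyl-CoA dehydrogenase of shorter chains, spanned 10.59 to 10.99 in B6N controls (median 10.80) and 10.98 to 11.49 on HFD (median 11.29). In C3H it spanned 9.61 to 10.37 in controls (median 10.09) and 10.14 to 10.71 on HFD (median 10.50). The groups overlapped only in 1 of 8 HFD livers of B6N and in 2 of 8 of C3H. Hadh rose 1.40-fold in B6N (1.24 to 1.57; adjusted p = 0.000111) and 1.32-fold in C3H (1.19 to 1.46; 0.000244), beside differences of 0.18 ± 0.09 in 129 and 0.19 ± 0.09 in B6J. Acaa2, the thiolase of the matrix, rose by 0.25 ± 0.06 in B6N (adjusted p = 0.0124), from a range of 11.46 to 11.83 in controls to 11.79 to 12.02 on HFD, a call lost under 4 of 15 alternatives, which were median centring, B6N fitted alone and each B6 part alone (adjusted p up to 0.887). In 129, B6J and C3H its differences were 0.03 ± 0.06, 0.00480 ± 0.0623 and 0.15 ± 0.05, the second of which was below 0 under 4 of 15 alternatives, among them median centring (-0.00136). Echs1, the short-chain hydratase, was called in no strain, with differences between -0.02 and 0.14.

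Hadha and Hadhb encode the alpha and beta subunits of the trifunctional protein, which carries out these steps on long chains. Hadha rose 1.34-fold in B6N (1.17 to 1.54; adjusted p = 0.00962), from a range of 9.64 to 10.17 (median 9.98) in controls to 10.07 to 10.51 (median 10.36) on HFD. Hadhb rose 1.31-fold in B6N (1.14 to 1.5; 0.0352) and 1.27-fold in C3H (1.13 to 1.43; 0.0219). The B6N call was lost under 4 of 15 alternatives, the fits of each B6 part among them, and the C3H call under 4 of 12 (adjusted p up to 0.637 and 0.176). A separate probe set annotated to Hadhb gave 0.39 in B6N and 0.34 in C3H, beside 0.38 and 0.34 for the one used. Control and HFD livers overlapped for both genes. The differences of Hadha and Hadhb side by side were 0.14 and 0.20 (129), 0.11 and 0.22 (B6J), 0.43 and 0.38 (B6N), and 0.22 and 0.34 (C3H), on the log2 scale. Their transcription starts lie head to head, 273 bases apart, and their windows share 228 bases at chr5:30155003-30155230 (GRCm38.p6), neither with the hexamer nor with the repeat. The Hadha window is shown because members of 1 protein complex that share a promoter region were measured by separate probe sets; it lies at chr5:30154931-30155230 on the minus strand, with the shared bases in capitals:
Hadha: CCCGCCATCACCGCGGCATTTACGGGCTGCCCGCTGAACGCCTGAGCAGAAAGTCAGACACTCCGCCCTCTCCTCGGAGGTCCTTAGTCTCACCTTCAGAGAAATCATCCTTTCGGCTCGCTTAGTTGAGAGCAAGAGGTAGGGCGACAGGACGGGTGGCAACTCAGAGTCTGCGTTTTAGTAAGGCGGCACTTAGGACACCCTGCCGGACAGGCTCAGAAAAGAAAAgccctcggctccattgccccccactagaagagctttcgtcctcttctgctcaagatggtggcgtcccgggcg
The Hadhb window begins within the same bases and runs the opposite way.

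The enzymes of double bonds, like those of ketone bodies, were all called in both B6N and C3H. They rose in B6N by 0.50 ± 0.11 (Eci1), 0.45 ± 0.10 (Eci2), 0.53 ± 0.11 (Ech1) and 0.54 ± 0.10 (Decr1), and in C3H by 0.46 ± 0.09, 0.57 ± 0.09, 0.72 ± 0.09 and 0.54 ± 0.08. The Eci1 call in C3H was lost with that strain fitted alone (adjusted p up to 0.079). In 129 Eci2 and Ech1 rose, and in B6J none of the 4 passed, with differences from 0.30 to 0.40. Over the mean of the 4 strains all 4 rose, by 0.42 to 0.54.

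Ech1, a dienoyl-CoA isomerase, was the clearest of them in C3H. There its log2 value spanned 9.06 to 9.69 in controls (median 9.26, n = 18) and 9.87 to 10.27 on HFD (median 10.01, n = 8). It was the only gene of the 28 whose groups did not overlap in C3H, as was the case for 0.0451% of all genes there. Ech1 rose 1.65-fold in C3H (1.46 to 1.87; adjusted p = 2.39e-08), 1.45-fold in B6N (1.25 to 1.67; 0.000994) and 1.43-fold in 129 (1.23 to 1.66; 0.00537). In 129 it spanned 10.38 to 10.92 in controls (median 10.74) and 10.94 to 11.73 on HFD (median 11.17), without overlap. The 129 call was lost only when that strain was fitted alone (adjusted p = 0.061; 3.11e-05 to 0.061 over the alternatives run).

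Eci2, an enoyl-CoA isomerase also found in peroxisomes, rose 1.48-fold in 129 (1.28 to 1.72; adjusted p = 0.00157), 1.37-fold in B6N (1.18 to 1.58; 0.00863) and 1.48-fold in C3H (1.31 to 1.68; 1.01e-05). Its log2 value in 129 spanned 9.996 to 10.41 in controls (median 10.28) and 10.50 to 11.13 on HFD (median 10.85), with no overlap. In B6N it spanned 9.04 to 10.02 in controls (median 9.30) and 9.64 to 10.05 on HFD (median 9.83). Only 1 of 8 HFD livers lay above every control there, since 1 control reached 10.02, and the B6N call was lost with that strain fitted alone and in B6 part 1 alone (adjusted p up to 1.0). Eci2 in 129 was called under all 13 alternatives run. Eci1, the other enoyl-CoA isomerase, and Decr1, the dienoyl-CoA reductase, each had an adjusted p of 0.0511 in 129, with differences of 0.42 ± 0.11 and 0.39 ± 0.10. Without control replicate 6 both were called, at 0.46 ± 0.11 and 0.42 ± 0.11 (adjusted p = 0.0283 and 0.0402). Every HFD liver lay above every control for Eci1 in B6N (10.04 to 10.26 against 9.35 to 9.99) and for Decr1 in B6J (9.77 to 10.05 against 9.35 to 9.73), the latter without being called (adjusted p = 0.162).

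Ketone body formation was represented by Acat1, the acetoacetyl-CoA thiolase, and Bdh1, which interconverts acetoacetate and beta-hydroxybutyrate. Bdh1 rose in B6J, B6N and C3H and was the only gene of the 28 called in B6J. Its log2 value in B6N spanned 9.13 to 9.61 in controls (median 9.32, n = 8) and 9.88 to 10.28 on HFD (median 10.18, n = 8). In B6J it spanned 9.35 to 9.48 in controls (median 9.39, n = 8) and 9.55 to 10.06 on HFD (median 9.79, n = 7), and in C3H from 8.14 to 8.87 (median 8.56, n = 18) and 8.59 to 9.49 (median 9.13, n = 8). The groups did not overlap in B6N and B6J, and in C3H 5 of 8 HFD livers lay above every control. Bdh1 rose 1.75-fold in B6N (1.53 to 2.0; adjusted p = 1.6e-08), 1.43-fold in C3H (1.27 to 1.60; 1.99e-05) and 1.33-fold in B6J (1.15 to 1.53; 0.0477). The B6J call was lost under 8 of 15 alternatives (adjusted p from 0.000352 to 1.0), among them the fits of each B6 part and that with the parts as a block (0.40; 0.0655). In 129 Bdh1 spanned 10.03 to 10.96 in controls (median 10.75) and 10.88 to 11.26 on HFD (median 11.07), a difference of 0.38 ± 0.10 that did not pass (0.0511) and was 0.29 ± 0.10 without control replicate 6 (0.253).

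Acat1 rose 1.43-fold in B6N (1.26 to 1.63; adjusted p = 0.000264) and 1.26-fold in C3H (1.13 to 1.41; 0.0137). In B6N it spanned 10.08 to 10.76 in controls (median 10.34) and 10.73 to 10.95 on HFD (median 10.86), and in C3H from 9.10 to 9.90 (median 9.53) and 9.26 to 10.15 (median 9.86). The groups overlapped in both, and the C3H call was lost under 3 of 12 alternatives (adjusted p up to 0.258). In 129 they did not, with 11.82 to 12.10 in controls and 12.21 to 12.53 on HFD, and the difference of 0.36 ± 0.10 had an adjusted p of 0.0621. Counted over genes, every HFD liver lay above every control for 3 of the 28 in 129 (Eci2, Ech1 and Acat1; 0.176% of all genes), 3 in B6J (Cpt1a, Decr1 and Bdh1; 0.145%), 4 in B6N (Slc25a20, Acadm, Eci1 and Bdh1; 0.241%) and 1 in C3H.

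Neither measured regulator was called in any strain. Pdk4, the kinase that inhibits pyruvate dehydrogenase, had lower values on HFD in 129 (-0.39 ± 0.27) and B6J (-0.63 ± 0.27) and higher ones in B6N (0.13 ± 0.26) and C3H (0.29 ± 0.22), none of them called, with adjusted p-values of 0.996, 0.708, 1.0 and 0.834 in 129, B6J, B6N and C3H. The 95% intervals of Pdk4 in B6N and C3H, -0.38 to 0.65 and -0.15 to 0.73, include differences as large as those of called genes. In B6J its log2 value spanned 5.70 to 7.01 in controls (median 6.06) and 4.57 to 6.82 on HFD (median 5.45), and 5 of 7 HFD livers lay below every control. With array weights it was called lower in 129, and under no other alternative or strain. Ppargc1a, a coactivator of PPARα, differed by -0.17 ± 0.17, 0.17 ± 0.17, 0.02 ± 0.16 and -0.06 ± 0.14 in 129, B6J, B6N and C3H. Its control medians lay only 0.67, 0.57 and 0.62 log2 units above the array median in B6J, B6N and C3H, against 2.38 in 129. Its other probe set differed in sign from the one used in B6J (-0.14) and in C3H (0.21).

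Averaged over the 4 strains, 18 of the 28 genes rose and none fell, against 2.02% of all genes higher and 1.14% lower. They were the 17 called in any strain and Acadvl, at 0.15 ± 0.04 (adjusted p = 0.0421). Acadvl lost this call in the fit of each B6 part, with median centring, with trend and robust eBayes, and without 129 control replicate 6. Acaa2 lost its call in the mean under the same alternatives except the last. Acad11, Acadm and Hadha lost theirs only in the fit of B6 part 1. The highest means were those of Cpt1a at 0.69 ± 0.10, Crat at 0.62 ± 0.09, Ech1 at 0.54 ± 0.05 and Bdh1 at 0.53 ± 0.05, and the lowest among those called was that of Acaa2 at 0.11 ± 0.03.

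Whether a gene's response differed between strains was tested directly, and no such difference passed for any of the 28. In the limma F test of any difference among the 4 effects, 0 of 28 were called, beside 0.125% of all genes, and 5 had an unadjusted p under 0.05 (Bdh1, Acaa2, Hadh, Pdk4 and Crat; lowest adjusted p = 0.971). Over the 6 pairs of strains, 0 of 168 differences were called and 13 had an unadjusted p under 0.05. Of all genes, 0.00502% were called between 129 and B6J, 0.0401% between 129 and B6N, 0.0602% between 129 and C3H, 0.0401% between B6J and C3H, 0.0451% between B6N and C3H, and 0.0% between B6J and B6N. The lowest adjusted p, 0.635, was that of Bdh1 between 129 and B6N, where the effect was smaller in 129 by a log2 difference of -0.42 ± 0.14 (95% interval -0.70 to -0.14). Bdh1 also differed between B6J and B6N by -0.40 (-0.68 to -0.12), and Crat by -0.58 (-1.10 to -0.06), without passing. The counts of 16, 11, 3 and 1 called genes are therefore not shown to differ between strains gene by gene. Across the 28 genes, the effects of 2 strains had Pearson correlations between 0.555 (B6J and C3H) and 0.811 (B6N and C3H), and Spearman correlations between 0.728 and 0.864. The genes are not independent of each other and share the same livers within a strain. Control livers of B6N and B6J, the only strains whose levels could be compared, gave 0 of 28 genes called in limma, with 0 at an unadjusted p under 0.05 and 0.0351% of all genes called. The largest difference was that of Pdk4, -0.33 ± 0.26 (B6N minus B6J).

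The pathway was also followed in each liver, as the mean over the 28 genes of the log2 value minus the control mean of its strain. In B6N it spanned -0.18 to 0.24 in controls and 0.27 to 0.56 on HFD, and in 129 from -0.40 to 0.09 in controls and 0.12 to 0.43 on HFD. In both, every HFD liver lay above every control. In B6J the ranges were -0.11 to 0.15 and 0.02 to 0.40, with 3 of 7 HFD livers above every control, and in C3H -0.24 to 0.19 and -0.04 to 0.58, with 5 of 8. Of the C3H HFD livers, 4 lay between 0.43 and 0.58 and the other 4 between -0.04 and 0.22.

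**Figure D4:**
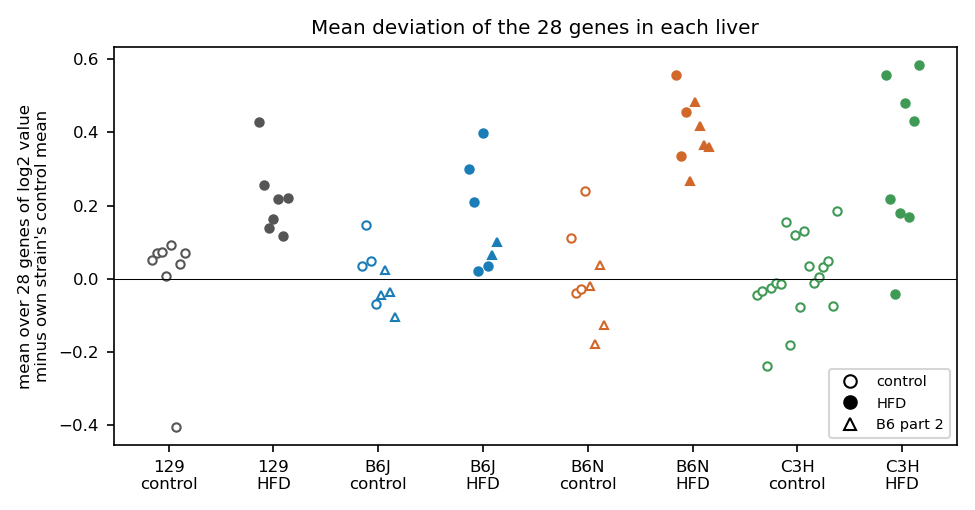
Mean over the 28 genes of the log2 value minus the control mean of the same strain (vertical axis) in each liver of the 8 groups; open symbols are controls, filled symbols HFD, and triangles mark part 2 of the B6 arrays. HFD livers of 129 and B6N lie above every control of their strain, and 1 control of 129 (replicate 6) lies at -0.40.

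Within each B6 part fewer B6N genes were called than on all arrays. In part 1, with 4 B6N controls and 3 HFD livers, the median difference of the 28 genes was 0.35, all 28 lay above 0, and 1 was called (Bdh1). In part 2, with 4 and 5, the median was 0.45, 27 lay above 0, and 8 were called (Slc25a20, Crat, Hadh, Eci2, Ech1, Decr1, Acat1 and Bdh1). With the parts as a block, the same 16 genes as without it were called in B6N. In B6J the medians were 0.14 in part 1 (4 controls and 5 HFD livers) and 0.18 in part 2 (4 and 2), with none called in limma in either and 6 and 3 genes at an unadjusted p under 0.05. Without control replicate 6 the median difference in 129 was 0.18, and 4 genes were called (Eci2, Ech1, Eci1 and Decr1). The shares of all genes called in the fits of this paragraph are not given here.

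Of the other genes of the pathway, 35 of 38 listed were measured. In B6N 2 rose and 1 fell, against 0.637% of all genes higher and 0.281% lower. In C3H 1 rose and 2 fell, against 0.517% of all genes higher and 0.336% lower. In 129 and B6J none was called in limma, with 3 and 5 at an unadjusted p under 0.05. Their median differences were 0.02, -0.02, 0.08 and 0.07 in 129, B6J, B6N and C3H. Acot2, a mitochondrial acyl-CoA thioesterase, rose in B6N from 6.27 ± 0.22 to 7.03 ± 0.51 (SD, n = 8 each; difference 0.76 ± 0.19 SE, adjusted p = 0.0232) and in C3H from 4.32 ± 0.46 (n = 18) to 5.05 ± 0.20 (n = 8; 0.73 ± 0.16, 0.00487). In 129 and B6J it differed by 0.14 ± 0.20 in each. Ppara, which encodes PPARα, rose by 0.69 ± 0.17 in B6N (adjusted p = 0.0141), beside 0.48 ± 0.17 in 129, 0.56 ± 0.17 in B6J and 0.29 ± 0.14 in C3H. Of those that fell, Bdh2, a cytosolic dehydrogenase, did so in B6N (-0.61 ± 0.14; 0.0062), and Acadsb, the dehydrogenase of short branched chains, and Acsm1, a medium-chain acyl-CoA synthetase, did so in C3H (-0.49 ± 0.13 and -0.33 ± 0.09; 0.033 and 0.0408). Averaged over the 4 strains, 4 of the 35 rose (Acot2, Ppara, Lpin1 and Hsd17b10), against 2.02% of all genes. In the same mean 3 fell (Bdh2, Acadsb and Acsm1), against 1.14% of all genes.

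Markers of other cells and of sampling time moved with diet in some strains. In 129, 6 of 14 macrophage and Kupffer cell markers rose (Adgre1, Cd5l, Clec4f, C1qb, C1qc and Cd68), against 0.441% of all genes. The mean of these 14 in 129 spanned 8.39 to 8.92 in controls and 8.70 to 9.90 on HFD. Their median difference was 0.52 there, beside 0.28 (B6J), 0.05 (B6N) and 0.07 (C3H), with no marker called in these 3 strains. Averaged over the 4 strains, 6 of the 14 rose, against 2.02% of all genes. Of 15 pancreatic acinar genes none was called, but their median difference in B6N was 1.20, with list means from 4.60 to 6.44 in controls and 4.88 to 7.95 on HFD. With the acinar mean as a covariate, the same 16 genes as without it were called in B6N. Of 16 clock genes 3 rose in 129 (Per2, Per3 and Ciart), against 0.441% of all genes. Averaged over the 4 strains, 7 clock genes rose and 1 fell, against 2.02% and 1.14% of all genes. Dbp, which peaks in the daytime in mouse liver, and Arntl, which peaks opposite to it, differed in 129 by 1.04 ± 0.38 and -0.77 ± 0.28 and in B6J by 0.99 ± 0.38 and -0.81 ± 0.28, none called. The B6N differences were 0.27 ± 0.36 and -0.18 ± 0.27, those of C3H 0.39 ± 0.31 and -0.23 ± 0.23, also not called. With Dbp minus Arntl as a covariate, 4 genes were called in 129, 0 in B6J, 15 in B6N (all but Acad11) and 11 in C3H. The part of the macrophage markers in the 129 result was not tested. Of 9 hepatocyte markers, Cps1 fell in C3H (0.336% of all genes fell there), and none was called in the other strains. Averaged over the 4 strains, 2 of the 9 fell, against 1.14% of all genes.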

How the data were processed

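Liver RNA of 72 mice was labelled with an Affymetrix whole-transcript assay, 1 array per mouse. The authors deposited log2 values of probe sets. Per the submitters' processing notes they came from RMA (background subtraction, quantile normalisation, probe summary), run in version 1.1 of the Affymetrix Expression Console. Whether all arrays were normalised together is not given in the sources used here, and 3 ranges of array medians were read as 3 separate sets. Of 35556 probe sets, 21789 carried 1 gene symbol, 1621 several and 12146 were not listed in the platform annotation. Symbols were updated through Entrez identifiers, and 21698 matched. Arrays give no read depth, and their number limits the precision.

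For each of 19938 genes, limma 3.58.1 (R 4.3.3) fitted 8 group means over 72 arrays and 64 residual degrees of freedom. Tests were two-sided, moderated with eBayes, and adjusted by Benjamini-Hochberg over all genes of a contrast; intervals are 95% intervals. The fit was tested on simulated data. All 28 genes are named, with a difference or fold for each call in a strain and group ranges for many of these calls. Members and lists were chosen with earlier results of these data known. No label names a litter or day, so a p-value reflects only how these samples spread. Deviations of same-numbered control and HFD arrays correlated above 0.1 in every one of the 8 pairs only in B6N (0.158 to 0.512). They did so in 5 of 7 pairs in 129, 4 of 7 in B6J and 3 of 8 in C3H. The numbers were therefore taken to pair samples in B6N alone, though no label states a pairing. Same-numbered B6N arrays, except replicate 4, also fell in the same B6 part. The share of the parts in these correlations was not tested. 12 alternatives were planned and 4 added after seeing the data. Promoter windows came from RefSeq (GRCm38.p6).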

Additional observations from a re-analysis of the deposited data

Results flagged for a closer look

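Of 196 sets of 1 gene in 1 group of 7 or 8 arrays, 21 had a single array set apart from the rest, by a gap that chance gives in about 1 of 20 such sets. In 12 of the 21 that array was control replicate 6 of 129, as the lowest of its group: Slc22a5 at 7.04, Slc25a20 at 9.63, Cpt2 at 10.13, Acadl at 9.65, Acadm at 11.93, Acad10 at 7.71, Acad11 at 11.39, Etfa at 10.74, Echs1 at 11.48, Hadha at 11.30, Hadh at 12.37 and Bdh1 at 10.03 (log2 values). The widest gap in log2 units among these 12 was that of Cpt2, whose next lowest control was at 10.99, and the widest as a share of the group's range was that of Acadl, whose next lowest was at 10.45. The same array was the highest of its group for Hadhb (10.99), Eci1 (11.22), Ech1 (10.92) and Decr1 (10.94), none of which was set apart by this measure.

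The other low values were those of Acsl5 in B6J HFD replicate 3 (9.98), Crat in B6J control replicate 7 (7.33), Acat1 in 129 control replicate 5 (11.82), Pdk4 in B6N control replicate 8 (4.74) and Ppargc1a in B6J HFD replicate 6 (4.97). The high values were those of Acadvl in 129 HFD replicate 1 (10.78), Echs1 in B6J control replicate 7 (10.19), Acat1 in B6N control replicate 4 (10.76) and Pdk4 in B6J control replicate 6 (7.01).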

How the results depend on the processing

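The counts of called genes in C3H (11), in the mean of the strains (18), in the test of strain dependence (0) and between B6 controls (0) stayed within 1.5 times under every alternative run for them. In 129 the count of 3 became 6 with the acinar covariate, with bright genes only and with the mean of probe sets. It became 8 with quantile normalisation and with leading component covariates, and 9 with array weights. Of these 9, Pdk4 was called lower. In B6J the count of 1 became 0 in each B6 part, with the parts as a block, with the clock covariate, with every probe set, with median centring and with trend and robust eBayes, 2 with quantile normalisation, 4 with the strain alone and 5 with array weights and with leading component covariates. In B6N the count of 16 became 1 in part 1 and 8 in part 2, fits on fewer arrays, and was 12 to 18 otherwise. The strain alone kept 1 of 3 calls in 129, 13 of 16 in B6N and 8 of 11 in C3H. The cause of the other changes was not tested. The shares of all genes called under the alternatives of this section are not given here. Whether calls over all genes changed alike is therefore not shown.

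With the replicate block 129 kept its 3 calls, B6J had 0, B6N 16, and C3H 9 (without Acat1 and Hadhb). In B6N, where the numbers were taken to pair the samples, the same 16 genes were called.

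Direction changed only for a gene in a strain in which it was not called. In B6J these were Acsl5 (0.0677 with array weights), Cpt2 (0.058 in part 2), Etfa (-0.0729 in part 1, -0.0221 with the parts as a block), Etfb (-0.027 in part 2), Ppargc1a (-0.045 in part 2) and Acaa2 (-0.0485 in part 1, -0.00983 with the parts as a block, -0.00136 with median centring, -0.00986 with the replicate block). In B6N this was Ppargc1a (-0.0525 in part 2, -0.00568 with array weights). In C3H they were Acsl5 (-0.0104 with array weights, -0.0919 with the replicate block) and Ppargc1a (0.0726 with the mean of probe sets). Neither scaling moved the median of all genes by 0.1 in any strain.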
